A study of Arabidopsis thaliana with 9 samples.

Results

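The clf swn double mutant of Arabidopsis thaliana was compared with its wild type, the Columbia ecotype (Col), on 6 of the 9 arrays of the series. Members were chosen by title: 3 arrays titled clf-7swn-28 and 3 titled col, across all 30361 sequence IDs of the array. The remaining 3 arrays hold plants with an RNAi construct against FIE (siFIE). They entered no comparison and served only to estimate the spread between pools. Plants of both groups were grown for 12 days on MS agar at 22°C with 16 h of light and 8 h of dark, and each array carried the RNA of its own pool of 10 to 12 plants. The sources name the alleles in conflicting ways: the titles and the extraction notes give clf-7 swn-28, whereas the growth notes give swn-7 clf-28. The mutant is sterile and homozygous seedlings were picked from the progeny of plants heterozygous at CLF, so Col and mutant seedlings did not come from equivalent parents. Whole seedlings were harvested, so every value is a sum over all organs, and fewer cells of a type cannot be told apart from less RNA per cell. The p-values measure the spread between these pools, since nothing in the sources says that the pools were grown as separate experiments.

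Polycomb Repressive Complex 2 (PRC2) places trimethylation on lysine 27 of histone H3 (H3K27me3), a mark of genes held silent through cell divisions. CURLY LEAF (CLF) and SWINGER (SWN) are the catalytic subunits that act after germination, and MEDEA (MEA) is a related subunit that acts mainly in the endosperm. In a second step PRC1 proteins ubiquitinate histone H2A and help to keep the marked gene silent. Plants that lack both CLF and SWN are known to germinate normally and then to lose organ identity and grow as a callus-like mass with embryonic characters.

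The array carries 2 or 3 probes for nearly every gene. Values are the authors' RMA values, a background-corrected and quantile-normalised summary of the probe signals on a linear scale. Median RMA values of the 6 arrays lay between 1115.7 and 1149.2, while median probe signals before normalisation ranged from 1213.2 to 2370.1, with Col replicate 2 the brightest. Arrays of the same genotype correlated at 0.991 to 0.994 over all sequence IDs, and arrays of different genotype at 0.915 to 0.921. Among 7 genes commonly used as constant references, UBQ10 was called up-regulated (log2 change 1.39, but 0.79 and not called without background correction) and the other 6 lay between -0.62 and 0.12, less than a 2-fold change, although ACT8 (-0.62, limma adjusted p = 0.0011) and YLS8 (-0.46, limma adjusted p = 0.0049) differed beyond the spread between pools.

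The mutated genes were examined first. CLF gave RMA values of 11774, 12348 and 10798 on the Col arrays and of 3744, 4447 and 3852 on the clf swn arrays, a 2.9-fold decrease (log2 change -1.54 ± 0.12 SE, limma adjusted p = 6.6e-06). All 3 mutant values lay below all Col values, yet CLF transcript was still well above the signal of silent genes. SWN gave 11186, 11516 and 11643 in Col and 180, 392 and 118 in clf swn, a 56.5-fold decrease (log2 change -5.82 ± 0.35, adjusted p = 9.5e-07). SWN was thus far closer to absent than CLF. The individual probes showed the same contrast. The 3 CLF probes kept 0.316, 0.409 and 0.318 of their mean Col signal, and the 3 SWN probes kept 0.0308, 0.066 and 0.027. Where the probes lie relative to the insertions was not given in the sources used here, so the remaining CLF signal does not say whether a full-length transcript was made.

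The other 6 PRC2 genes were not called. FIE, the subunit present in every PRC2 complex, gave 1976, 1768 and 1786 in Col and 3392, 3249 and 3349 in clf swn (log2 change 0.85 ± 0.12, adjusted p = 0.00036), with no overlap but under the 2-fold threshold. EMF2 and VRN2, the alternative zinc-finger subunits that partner CLF and SWN, had log2 changes of 0.08 and -0.05, and MSI1 of 0.25. The seed-specific subunits MEA and FIS2 stayed at the low end of the scale in both genotypes, with means of 35.1 and 69.4 in Col and 59.6 and 60.8 in clf swn.

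A gene was called when its limma adjusted p over all 30361 IDs was under 0.05 and its change was more than 2-fold. This called 2666 up-regulated IDs (8.78%) and 3896 down-regulated IDs (12.8%), and counts of members below are to be read against these percentages. The median log2 change over all IDs was 0.05. Of the up-regulated IDs, 1024 rose more than 4-fold, 373 more than 16-fold and 64 more than 256-fold. The corresponding numbers for down-regulated IDs were 1361, 218 and 4. Decreases were thus more numerous, and very large changes were mostly increases. Up-regulated IDs had a median value of 297 in Col and 1771 in clf swn, whereas down-regulated IDs went from 1766 to 380. The folds of genes near the bottom of the scale depend on the background correction. With probe signals that were not background-corrected, 52 IDs rose and 3 fell more than 64-fold, against 163 and 43 with RMA values, and the log2 change of a called ID was at the median 0.669 of its RMA value for increases and 0.696 for decreases. The folds below are on the RMA scale, and for genes near the bottom of the scale in either genotype they are to be read with this in mind. The called genes were spread over the genome, with 7.77 to 9.42% of the IDs of each nuclear chromosome up-regulated and 12.3 to 14.1% down-regulated.

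**Figure D1:**
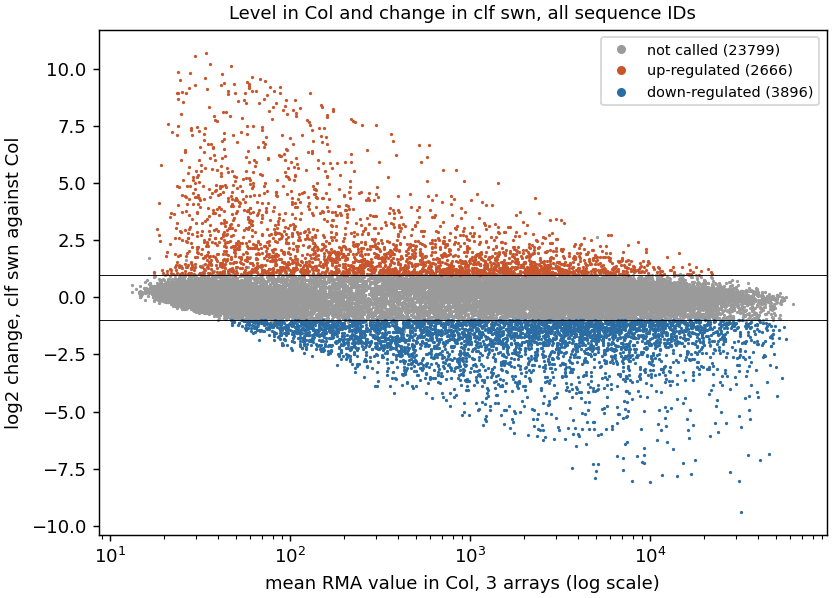
Each point is 1 of the 30361 sequence IDs, with the mean RMA value of the 3 Col arrays on the horizontal log axis and the log2 change in clf swn on the vertical axis. The 2666 up-regulated IDs reach a log2 change of 10.70 and start mostly from low Col values, and the 3896 down-regulated IDs include genes that were among the brightest in Col.

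The largest increases included several seed products. CRU3, a 12S cruciferin storage protein, gave 28.2, 38.9 and 35 in Col and 56052, 53093 and 59466 in clf swn (1665-fold, adjusted p = 1.9e-07), and 156-fold without background correction. Behind it came AT2G28490 (1527-fold), AT1G47540 (1200-fold), AT1G68250 (1145-fold), BETA-TIP (950-fold), CRU2 (924-fold), AT5G45690 (882-fold), the oleosin OLEO2 (807-fold), HSD1 at locus AT5G50700 (790-fold) and AT1G65090 (756-fold). The means of these 10 ranged from 24 to 67.7 in Col and from 22668 to 56204 in clf swn. Without background correction their increases were 88.6-fold to 161-fold.

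The largest decreases started from strongly expressed genes. AT4G22500 fell from 29447, 30247 and 36532 in Col to 41.7, 83.8 and 30.7 in clf swn (672-fold, adjusted p = 2.1e-08). HBI1, a growth-promoting bHLH factor (269-fold), the cytochrome P450 gene CYP71B4 (265-fold), CA1, a chloroplast carbonic anhydrase (261-fold), the receptor-like kinase CRK21 (244-fold), AT4G22510 (225-fold), AT1G70820 (220-fold), the ferric reductase FRO6 (214-fold), the light-harvesting gene LHCB2.3 (202-fold) and AT3G44970 (195-fold) followed. CA1 was uneven among the mutant pools, with values of 62, 499 and 55.6, all far below the Col range of 29827 to 33608. Without background correction these 10 decreases were 17.4-fold to 98.5-fold. AT4G22500 and AT4G22510 have neighbouring locus numbers and may share sequence, in which case their signals are not independent.

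Several genes of PRC1 and of proteins associated with Polycomb silencing were higher in clf swn. Of 12 members, 7 were up-regulated (5 without background correction), none was down-regulated and the median log2 change was 1.06. EMF1, a plant-specific protein that works with both complexes, gave 9528, 9897 and 9146 in Col and 42390, 35903 and 37337 in clf swn (4.04-fold, adjusted p = 5.9e-07). It was already abundant in Col, and the groups were far apart. VIN3, a PHD-finger protein normally induced by prolonged cold to silence FLC, went from 68.2, 61.8 and 45.6 to 5676, 4937 and 4300 (85.6-fold, adjusted p = 1.3e-08). ULT1, a SAND-domain protein that counteracts Polycomb silencing, rose 4.71-fold. The H2A ubiquitin ligase gene RING1A rose by 1.41 on the log2 scale, BMI1A by 1.08 and RING1B by 1.06, and HSI2, a B3-domain repressor of seed genes, by 1.06. BMI1A and RING1B lost the call without background correction (log2 changes 0.99 and 0.97), and RING1B also without Col replicate 3 (0.98). LHP1, which binds H3K27me3, had a log2 change of 0.43 and was not called, and neither were VRN1, VRN5, VEL1 and HSL1.

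**Figure D2:**
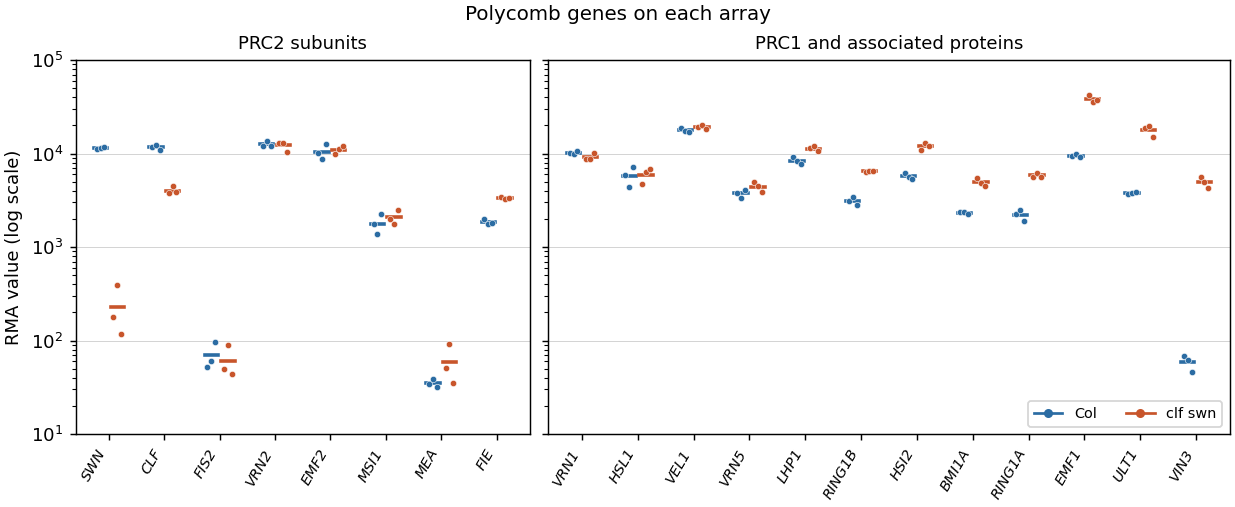
RMA values (log axis) of 8 PRC2 genes and 12 PRC1 and associated genes on each of the 3 Col and 3 clf swn arrays, with a bar at each group mean. CLF and SWN lie lower in clf swn, 7 of the 12 genes on the right lie higher, and VIN3 moves from 58.5 to 4971.

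Embryo genes were among the largest gains. The transcription factors that drive seed maturation are led by the B3-domain proteins ABI3, FUS3 and LEC2 and the CCAAT-binding protein LEC1, which are normally silenced at germination. Of 19 such regulators, 15 were up-regulated and none was down-regulated (median log2 change 2.99). ABI3 gave 61.8, 76.2 and 34.5 in Col and 35990, 36336 and 39878 in clf swn (684-fold, adjusted p = 1.1e-08). Next in size were ABI4, an AP2-domain factor of abscisic acid signalling (8.96 on the log2 scale), NF-YB6, the closest relative of LEC1 (7.24), BZIP67 (6.11) and FUS3 (5.84). LEC1 and LEC2 were among the 15. LEC1 gave 33.9, 30.3 and 39 in Col and 338, 489 and 319 in clf swn, and LEC2 gave 139, 138 and 126 and then 1098, 1120 and 982. In both, every mutant value exceeded every Col value. HSFA9, a seed-specific heat shock factor, was called with RMA values (2.25) but not without background correction (0.90). The 4 that were not called were MYB115, which stayed at the bottom of the scale with means of 19.9 and 22.8, and the bZIP factors BZIP10, BZIP53 and BZIP25, whose log2 changes ranged from -0.37 to 0.09 at high values in both genotypes.

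Seed products changed without exception. All 9 storage protein genes rose (median log2 change 8.64, range 7.54 to 10.70), as did all 6 oil body genes (median 8.81, range 6.66 to 9.66) and all 9 late embryogenesis genes (median 6.42, range 2.26 to 9.19), and all 24 kept the call without background correction. After CRU3 and CRU2, the largest rises among storage proteins were of the cruciferin CRA1 (9.46), the 2S albumin SESA1 (8.66) and the vicilin-like PAP85 (8.64). The 2S albumins SESA1 to SESA4 lie next to each other and are similar in sequence, so signal may be shared among them. OLEO1 gave 129, 139 and 119 in Col and 63919 on each of the 3 mutant arrays, which is the highest RMA value of any ID, so the size of its rise is limited by the scale. Among the late embryogenesis genes, the peroxiredoxin PER1 rose by 9.19 on the log2 scale, EM1 by 8.34, ECP63 by 8.29 and EM6 by 7.40. The smallest rises were of RAB18 (3.45), a dehydrin that was already at 3003 in Col, and M10 (2.26).

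**Figure D3:**
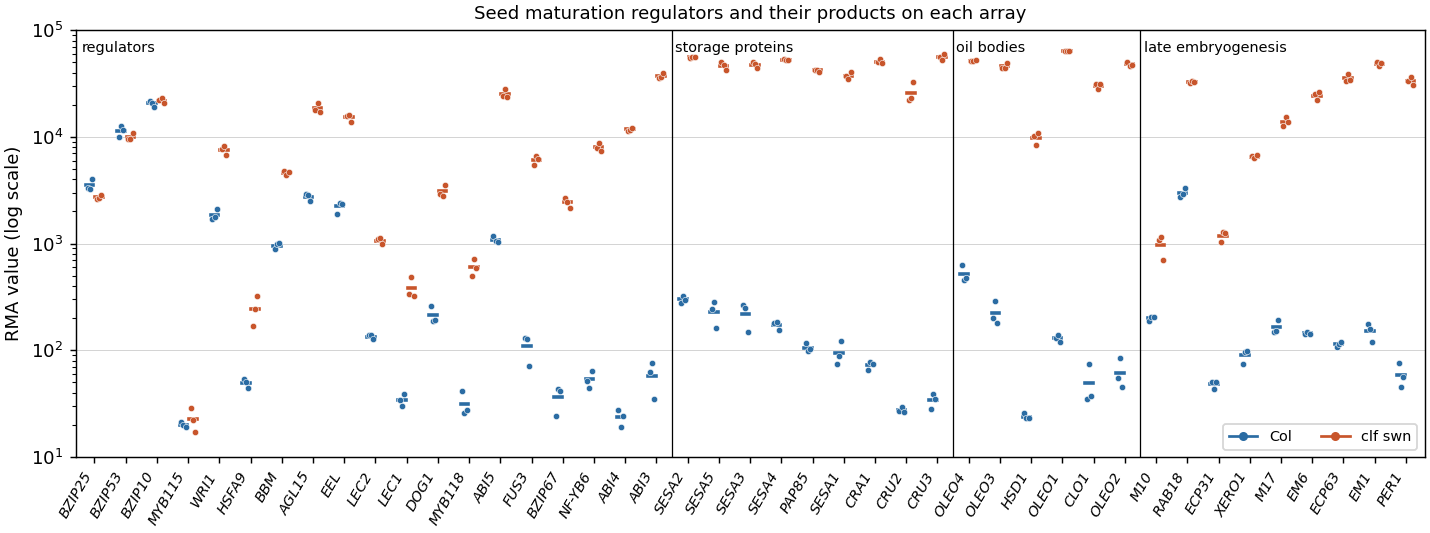
RMA values (log axis) on each of the 3 Col and 3 clf swn arrays for 19 seed maturation regulators, 9 storage protein, 6 oil body and 9 late embryogenesis genes, ordered by change within each class, with a bar at each mean. The products of the last 3 classes lie apart on all 6 arrays, and the 4 regulators at the left of the first class are those that were not called.

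Regions bound by FIE in seedlings had been mapped by the study with an HA-tagged FIE in the C24 ecotype, not in Col. The list used here holds only the regions that overlap an H3K27me3 peak, and GA repeats were among the motifs the study found in them. The first 300 bases of these regions were searched for a run of 4 GA units (GAGAGAGA) or of 4 CT units (CTCTCTCT), in the letters as printed. TCTCTCTC, which is GAGAGAGA read on the other strand, was not itself searched for. Stretches are shown here for up-regulated members whose bound region in the gene body holds either run. They are the 4 such members with the largest change. The repeat is in capitals and coordinates are of the TAIR9 build. The letters are as printed in the study's list of regions, whose strand is not given in the sources used here. Either run (GAGAGAGA or CTCTCTCT) was found in 71 of the 703 listed regions of at least 300 bases (10.1%).
TT16 (AT5G23260), a MADS-box gene, chr5:7836424-7836452: aagaggaagaAGAGAGAGAtgggtagagg
MYB5 (AT3G13540), a MYB gene of trichomes and seed coat, chr3:4420124-4420153: cagactaatgGAGAGAGAGAaactttgaga
LEC2 (AT1G28300), chr1:9899540-9899567: agaaaaccacCTCTCTCTtgccacaaac
JAZ10 (AT5G13220), a repressor of jasmonate signalling, chr5:4218958-4218987: tctgtcttgaTCTCTCTCTCactttctaat
The log2 changes of these genes in clf swn were 4.38, 3.99, 2.99 and 2.41. The matches are a description and were not related to the changes by a test.

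Genes of oil synthesis were mostly higher in clf swn, and a minority passed the 2-fold threshold. Of 13 such genes 12 had a positive log2 change (median 0.80), 5 were called up-regulated and none was called down-regulated. FAE1, which elongates fatty acids to the chain lengths stored in seeds, gave 135, 69.4 and 69.6 in Col and 26055, 24884 and 25999 in clf swn (295-fold, adjusted p = 1.9e-08). The sucrose synthases SUS2 (6.30) and SUS3 (2.52), the phosphatidylcholine exchange enzyme ROD1 (1.29) and the acyltransferase DGAT1 (1.13) rose as well. The desaturases FAD2 and FAD3 and the plastid enzymes of chain assembly were already abundant in Col and were not called (log2 changes of 0.19 and 0.41 for the desaturases). The changes of the plastid enzymes ran from 0.21 for PKP-ALPHA to 0.83 for BCCP2 (limma adjusted p = 1.8e-04). PDAT1 was lower under the threshold (-0.95, adjusted p = 2.2e-04). WRI1, the AP2 factor that controls fatty acid synthesis, rose by 2.01. Genes that break down oil after germination were not reduced. Of 8 such genes 3 rose, namely malate synthase (MLS, 10.3-fold, from a mean of 3211 to 33127), isocitrate lyase (ICL, log2 change 1.19) and MFP2 (1.11), and none fell.

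The tonoplast aquaporins of seeds and of vegetative organs changed in opposite directions. TIP3;1, the aquaporin of protein storage vacuoles, gave 53.5, 31.6 and 44.2 in Col and 29987, 26497 and 29465 in clf swn (679-fold, adjusted p = 1.5e-08). The 6 tonoplast aquaporins that are abundant in leaves and roots all fell. TIP1;2 gave 44773, 44603 and 49931 in Col and 6840, 5452 and 5842 in clf swn (7.71-fold lower, adjusted p = 7.3e-08). TIP2;3 (-3.28), TIP2;2 (-2.51), TIP4;1 (-1.95), TIP1;1 (-1.13) and TIP2;1 (-1.11) were the others. TIP1;3 and TIP5;1 were low in both genotypes and were not called. Of the vacuolar processing enzymes, BETA-VPE, which matures storage proteins, rose by 2.44, and GAMMA-VPE, the vegetative form, did not change measurably (-0.02 ± 0.11). ALPHA-VPE (1.05) and DELTA-VPE (1.04) were called only with background correction and lost the call when single arrays were left out. These were Col replicate 1 or clf swn replicate 1 for ALPHA-VPE (0.99 and 0.96), and Col replicate 2 or 3 or clf swn replicate 3 for DELTA-VPE (1.02, 1.01 and 0.79).

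In the FLC clade, which encodes MADS-box repressors of flowering, 3 of 6 members rose and none fell. FLC gave 52.9, 61.6 and 73.7 in Col and 3847, 4058 and 4381 in clf swn (65.8-fold, adjusted p = 3.0e-09). MAF5 (4.26) and MAF4 (3.47), which lie in a cluster with MAF2 and MAF3, rose from values under 100 on every Col array. MAF1, MAF2 and MAF3 were expressed in Col and had log2 changes of 0.59, 0.65 and 0.54, under the threshold. SVP, a repressor that acts with FLC, fell by 1.79. Among 10 flowering time genes, AGL17 (4.34), AGL24 (2.15) and AGL42 (1.49) were called up-regulated, the last not without background correction (0.67). SOC1, a promoter of flowering that FLC represses, fell by 2.02. FT gave 40.2, 49.4 and 68.9 in Col and 33.5, 50.3 and 38.6 in clf swn, so no increase was detected in these seedlings (log2 change -0.36 ± 0.24, adjusted p = 0.27).

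Most floral identity and organ genes were higher in clf swn. Of 18 floral identity genes 16 rose and none fell (median log2 change 5.02), and 13 of them were also called without background correction. The petal and stamen gene AP3 gave 41.8, 58.8 and 26.6 in Col and 12071, 11663 and 10328 in clf swn (281-fold, adjusted p = 1.9e-08). It was followed by SEP2 (7.35), SEP1 (6.52), AG (6.09), which specifies stamens and carpels, and SHP1 (5.68). Among meristem identity genes, AP1 rose from a mean of 94.4 to 3817 (5.34), while the calls of others depended on the background correction. LFY gave 37.9, 33.6 and 50.8 in Col and 105, 58.3 and 112 in clf swn, a log2 change of 1.13 that was lost without background correction (0.23) and without clf swn replicate 3 (0.96), and CAL and FUL were also lost without background correction (0.80 and 0.74). AP2 and SEP4 were expressed in both genotypes and were not called. In the list of floral organ formation 11 of 14 rose and none fell, 8 of them also without background correction. CRC, a YABBY gene of carpels and nectaries, gave 33.1, 34 and 62.6 in Col and 5882, 6402 and 6251 in clf swn (150-fold, adjusted p = 2.2e-06). JAG (4.40), HEC2 (4.26), NZZ (3.88) and HEC1 (3.17) were next. INO, IND and UFO were not called.

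Meristem regulators divided by class. All 4 class I KNOX genes, which keep cells undifferentiated, rose. STM gave 473, 321 and 327 in Col and 4789, 5091 and 6051 in clf swn (14.4-fold, adjusted p = 1.6e-06), and KNAT6 (2.53), KNAT2 (2.33) and KNAT1 (2.04) followed. None of the 4 class II KNOX genes, which act in differentiated tissue, rose and KNAT4 fell by 1.22. Of the 15 WOX homeobox genes 8 were called up-regulated. WOX9, an embryo and meristem gene, gave 116, 194 and 117 in Col and 8663, 8806 and 9849 in clf swn (65.7-fold, adjusted p = 5.1e-08), ahead of WOX2 (4.68), the stem cell organiser WUS (4.66), PRS (4.53) and WOX12 (3.58). PFS2 (log2 change 1.01) was the only called member of any list whose arrays overlapped between groups. Over all IDs the arrays lay apart for 99.8% of those up-regulated, 99.7% of those down-regulated and 44.4% of those not called. Separation is thus usual for a called ID. PFS2 lost the call without background correction (0.38) and in the fit of the 6 arrays alone (1.01). It was also lost without Col replicate 2 or 3 (1.10 and 0.65) or clf swn replicate 2 or 3 (0.85 and 0.92). WOX4, of the vascular cambium, and WOX1, of leaf margins, had log2 changes of -0.68 and -0.64 and were not called.

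Most genes in the list of meristem and organ boundary were called up-regulated, and few genes that give a leaf its faces were called. CUC1 gave 109, 87.9 and 80.8 in Col and 8275, 6018 and 7110 in clf swn (77-fold, adjusted p = 2.2e-08). CUC2 (4.17), CUC3 (3.85), PNF (from a mean of 729 to 3335) and BLH9 (1.83) also rose, and 9 of 12 members of this list were called up-regulated, 5 without background correction. The calls lost were those of LOB (0.86), LAS (0.78), BOP1 (0.62) and the stem cell signal CLV3 (0.30). BOP1 was also lost without Col replicate 2 (0.94) or clf swn replicate 3 (0.97), and CLV3 without clf swn replicate 1 (0.93). BOP2 and CLV1 were not called. ATH1, a homeobox gene of the shoot apex, fell from a mean of 7510 to 2665. Among 15 leaf polarity genes only KAN2 (1.48), KAN3 (1.02) and AS2 (-1.52) were called, and the calls of KAN3 (0.95) and AS2 (-0.62) were lost without background correction. KAN3 also lost its call without Col replicate 3 (0.86) or without clf swn replicate 1 or 2 (0.98 and 0.99). The other polarity genes, among them REV, PHB, ETT and YAB1, had log2 changes between -0.79 and 0.88.

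TCP factors showed opposite changes within the family. BRC1, of the CYC class, which arrests axillary buds, gave 50.8, 60.7 and 40.7 in Col and 1107, 1492 and 1592 in clf swn (27.6-fold, adjusted p = 2.2e-06). The other members of the CYC class, TCP1 (2.36) and TCP12 (2.06, lost without background correction at 0.81), also rose. The CIN-class genes that are targets of miR319 and promote leaf maturation were lower. TCP4 gave 5526, 4873 and 7434 in Col and 359, 613 and 696 in clf swn (10.9-fold lower, adjusted p = 3.1e-06), and TCP3 fell by 2.43 and TCP2 by 2.08. TCP10 and TCP24 had log2 changes of -0.96 and -0.62 and were not called. Of the CIN-class genes outside this group, TCP17 rose by 1.86 and TCP5 and TCP13 were not called.

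Nuclear genes for photosynthesis were reduced as a group. Of 21 light-harvesting and RuBisCO small subunit genes 17 fell, 1 rose and the median log2 change was -2.54. The fall differed widely between near relatives. LHB1B1 gave 15297, 18024 and 20085 in Col and 171, 167 and 72.7 in clf swn (138-fold lower, adjusted p = 1.1e-07), and LHCB2.2 (-6.25) and LHCA6 (-4.22) were next among the light-harvesting genes of the list. CAB1 went only from a mean of 47382 to 26193 and CAB3 from 39410 to 22902, and neither was called. Among the small subunits, RBCS1B (-5.76), RBCS2B (-4.93) and RBCS3B (-3.22) fell and RBCS1A did not pass the threshold (-0.40 ± 0.11, adjusted p = 0.015). These families are nearly identical in coding sequence, and a probe may read several members. LHCB4.3 was called up-regulated (1.05), a call lost without background correction (0.87) and without replicate 2 of either genotype (0.94 and 0.99).

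The same direction was seen along the supply chain of the chloroplast. Of 14 genes of chlorophyll synthesis 11 fell and none rose (median -1.45). PORC, a light-dependent protochlorophyllide reductase, gave 14595, 13777 and 17320 in Col and 1360, 1514 and 1869 in clf swn (9.67-fold lower, adjusted p = 1.4e-07), followed by PORA (-3.04) and CHLI2 (-2.53). HEMA2, CHLG and HEMA1 were not called. Of 10 Calvin cycle genes 7 fell, led by the aldolase FBA1 (-3.07) and the bisphosphatase HCEF1 (-2.61). Of 8 genes of photorespiration 7 fell, from SHM1 (-1.97) to the aminotransferase AGT (-3.06), and the catalase CAT2 stayed at 46482 in Col and 45115 in clf swn. Among 11 regulators of chloroplast development 6 fell. GLK1, which activates photosynthesis genes, gave 29433, 30093 and 34192 in Col and 3299, 4145 and 4580 in clf swn (7.85-fold lower, adjusted p = 1.9e-07), and its partner GLK2 fell by 2.52. Sigma factors of the plastid polymerase fell unevenly, SIG2 by 1.39 and SIG1 by 1.09 on the log2 scale and SIG4 from a mean of 9875 to 2310, while SIG3, SIG5 and SIG6 were not called. GNL was called up-regulated (1.21, but 0.98 without Col replicate 3), whereas its paralogue GNC fell by 1.25.

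Transcripts encoded in the plastid had a smaller median change than the nuclear genes above. Of 67 plastid IDs 17 fell, none rose and the median log2 change was -0.70. The largest decrease was of ATCG00420 (-1.85), and ATCG01080 (-1.67) and ATCG01070 (-1.64) were next. Of 94 mitochondrial IDs none fell and 9 were called up-regulated (3 without background correction), with a median of 0.44. The largest of the 9 was of ATMG01210 (1.39, not called without background correction). The share of 94 is close to that over all IDs. The shares called in the nuclear and organellar lists were not compared by a test.

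Most stomatal genes and a minority of trichome genes were lower. Of 16 genes of the stomatal lineage 11 fell and 2 rose (median -1.81). KAT1, a potassium channel of guard cells, gave 5760, 5631 and 4656 in Col and 78.4, 80.1 and 98.4 in clf swn (62.5-fold lower, adjusted p = 5.0e-09). EPF2 (-3.70), a peptide that limits entry into the lineage, the protease SDD1 (-2.98), FAMA (-2.45), which drives guard cell formation, and BASL (-2.38), of asymmetric division, were also lower. MUTE, which acts between SPCH and FAMA, was not called (0.55), while SPCH fell by 1.79. The receptor kinase ERL1 rose by 3.51 and the MYB gene FLP by 1.25. Of 15 trichome genes 6 fell and 1 rose, and 3 of the 6 also fell without background correction. GIS, a zinc-finger regulator of trichomes, gave 969, 815 and 1092 in Col and 85.7, 63.3 and 75.7 in clf swn (12.8-fold lower, adjusted p = 3.5e-07). GL1 (-3.10), CPL3 (-2.21) and GL2 (-1.12) lost the call without background correction (-0.92, -0.82 and -0.76), and ETC2 (-2.65) and MYB23 (-1.63) kept it. MYB5 rose by 3.99.

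Root and vascular markers were lower in part. Of 11 root hair genes 8 fell and none rose (median -1.58). LRX1, a cell wall protein of root hairs, gave 16049, 11669 and 19570 in Col and 1579, 3012 and 3340 in clf swn (6.13-fold lower, adjusted p = 0.00025), with the pools of each group spread widely but apart. Of 14 genes of other root cell types 8 fell and none rose, with IRT1, the iron transporter of the epidermis (-3.20), the root stem cell factor PLT1 (-2.37) and the Casparian strip proteins CASP2 (-1.98) and CASP1 (-1.92) in front. SCR, SHR and PYK10, the abundant beta-glucosidase of roots, were not reduced, with log2 changes of 0.58, 0.20 and 0.12. In the list for secondary walls and xylem 7 of 18 fell and 2 rose. The enzymes and wall proteins FLA11 (-1.88), IRX1 (-1.60), LAC4 (-1.41), XCP2 (-1.39) and XCP1 (-1.37) were lower. The NAC regulator NST1 went the other way, from 60.1, 49.4 and 41 in Col to 553, 641 and 774 in clf swn (13.1-fold, adjusted p = 5.7e-07), as did MYB58 (2.77), a regulator of lignin genes.

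Of tissues that a seedling should lack, few markers of pollen, tapetum, endosperm and seed coat were higher in clf swn. Most of the floral and embryo genes described above were higher. None of 9 pollen genes and none of 3 tapetum genes was called. Most pollen genes were at the bottom of the scale, but GEX2 (means of 1245 and 1346), ANX1 (642 and 929) and HAP2 (368 and 634) gave signal in both genotypes. Of 8 endosperm genes, AGL80 rose from 168, 162 and 139 to 795, 769 and 676 (4.79-fold, adjusted p = 4.6e-07), and ZOU was called (1.11) only with background correction. The endosperm genes FWA, PHE1 and AGL62 lay under 64 on every array. Of the 9 genes in the seed coat list none rose and 4 fell, whereas MYB5, listed with the trichome genes, and TT16, listed with the floral genes, which are also known from the seed coat, rose. The proanthocyanidin genes BAN, TT2 and TT12 stayed at means of 29.6 to 58.6 in both genotypes, and MUM2 (-3.26), TT8 (-2.36), AHA10 (from a mean of 346 to 83.5, but -0.82 and not called without background correction) and TT10 (-1.73), which were expressed in the Col seedlings, were lower.

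The flavonoid pathway was divided at a branch. Of the 8 genes for the early enzymes, flavonol synthase and the MYB factors that control them, 7 rose and none fell (median 1.71). MYB11 gave 369, 214 and 210 in Col and 6432, 4344 and 4379 in clf swn (19.5-fold, adjusted p = 1.8e-06), and the flavonoid hydroxylase TT7 rose 6.71-fold from an already high mean of 5842. MYB12 (1.82), the chalcone isomerase TT5 (1.79) and the flavonol synthase FLS1 (1.64) also rose. F3H (1.10) was called only with background correction and lost the call without clf swn replicate 3 (0.99), and the chalcone synthase TT4 was not called (0.64). Of the 7 genes of the anthocyanin arm 6 fell. LDOX, the anthocyanidin synthase, gave 7144, 5978 and 5294 in Col and 70.3, 135 and 147 in clf swn (54.6-fold lower, adjusted p = 2.1e-06). The glycosyltransferase UF3GT (-5.73), the reductase DFR (-5.34), the activator PAP1 (-3.92), the repressor MYBL2 (-3.67) and the transport gene TT19 (-3.46) fell with it. PAP2 was called up-regulated (1.64) at low values, with means of 74.9 and 233, and lost the call without background correction (0.60).

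For glucosinolates, the sulphur-containing defence compounds of crucifers, calls were confined to the aliphatic branch. Of 8 genes for aliphatic glucosinolates, made from methionine, 7 fell and none rose (median -2.47). MYB29 gave 8661, 9287 and 8976 in Col and 52.4, 68.3 and 64 in clf swn (147-fold lower, adjusted p = 1.5e-09). The neighbouring gene MYB76 (-4.20), the cytochrome P450 CYP79F1 (-3.62), MYB28 (-2.64) and CYP83A1 (-2.30) fell as well. None of 5 genes for indolic glucosinolates, made from tryptophan, was called (log2 changes between -0.61 and 0.55, median -0.50). Under the 2-fold threshold, CYP79B3 (-0.61, limma adjusted p = 0.0018), MYB51 (-0.58, adjusted p = 0.0016) and CYP83B1 (-0.50, adjusted p = 0.016) were lower. CYP79B2 was higher (0.55, adjusted p = 0.011) and MYB34 was near unchanged (-0.06). Whether the branches differ from each other was not tested.

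**Figure D4:**
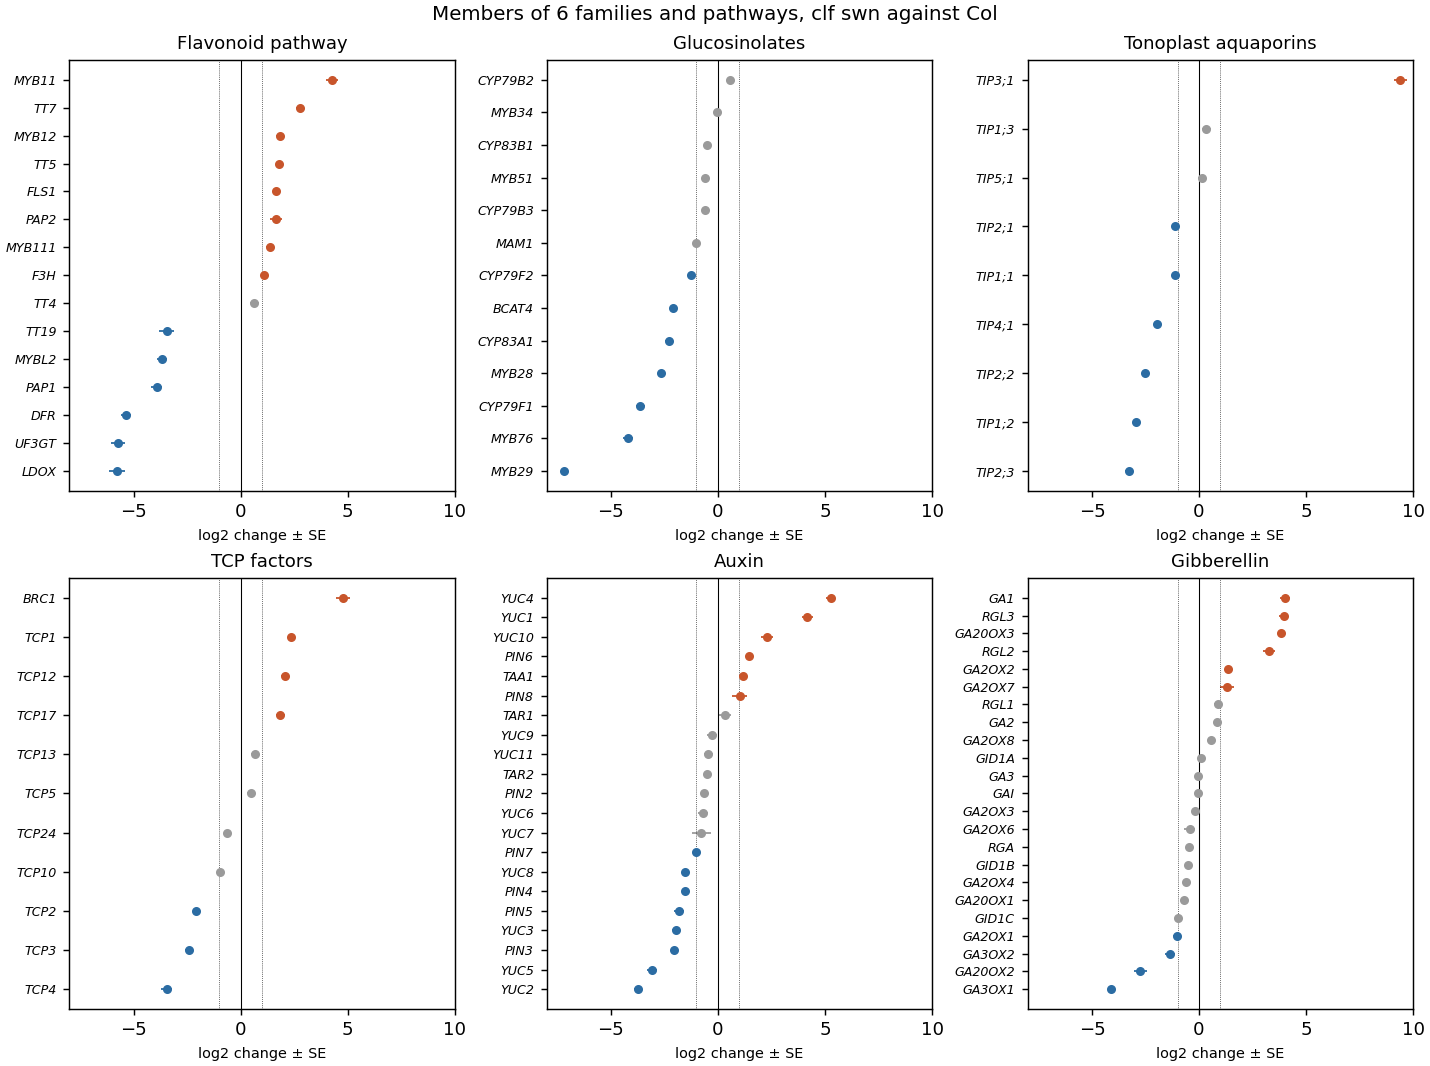
Log2 change in clf swn with its standard error from the fit for members of 6 families and pathways, coloured orange where called up-regulated, blue where called down-regulated and grey where not called. Dotted lines mark the 2-fold threshold. Each panel holds members on both sides of 0, from TIP3;1 at 9.41 to MYB29 at -7.20.

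Hormone genes changed member by member. For gibberellin 6 of 23 genes rose and 4 fell, with a median log2 change of -0.03, and without background correction the counts were 4 and 2. The committing enzyme GA1 (4.01) and the biosynthetic oxidase GA20OX3 (3.84) rose, whereas GA3OX1, the enzyme that makes the active hormone, gave 7770, 7326 and 7300 in Col and 543, 338 and 462 in clf swn (17-fold lower, adjusted p = 9.5e-08), and GA20OX2 fell by 2.74. GA3OX2 (-1.36) and GA2OX1 (-1.04) were called down-regulated only with background correction (-0.59 and -0.28 without it), GA2OX1 not without Col replicate 1 or 2 (-0.92 and -0.97). Of the DELLA repressors of gibberellin signalling, RGL3 (3.96) and RGL2 (3.27) rose and GAI, RGA and RGL1 were not called. In the list for abscisic acid, the hormone of seed maturation, 5 of 12 genes were called up-regulated and 3 down-regulated (3 and 2 without background correction). The synthesis gene NCED5 (3.16) and the catabolic genes CYP707A2 (1.58) and CYP707A1 (1.28) rose, and NCED3, the main gene of vegetative stress, fell by 2.02. NCED2 (2.37) and NCED9 (2.27) were called only with background correction (0.76 and 0.93 without it), and ABA1, which supplies the precursor, fell by 1.24. The catabolic gene CYP707A4 was called down-regulated (-1.53), but not without background correction (-0.76).

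Of 22 genes of auxin synthesis and transport 7 were called up-regulated (4 without background correction) and 8 down-regulated. YUC4 gave 193, 138 and 148 in Col and 5419, 6316 and 6423 in clf swn (38.2-fold, adjusted p = 5.7e-08), and YUC1 rose by 4.18. Both are active in floral and embryonic tissue. YUC10 (2.27) and the aminotransferase TAA1 (1.15) were called only with background correction (0.76 and 1.00 without it). YUC2 gave 432, 406 and 494 in Col and 41.8, 35 and 25.5 in clf swn (13.2-fold lower, adjusted p = 2.0e-07), and YUC5 (-3.09), YUC3 (-1.97) and YUC8 (-1.52) were also lower. Among the efflux carriers PIN6 rose by 1.45 and PIN3 (-2.04), PIN5 (-1.82) and PIN4 (-1.54) fell, PIN5 not without background correction (-0.88). For cytokinin, 4 of 19 genes rose and 4 fell, 2 of the latter also without background correction. The synthesis gene IPT1 gave 132, 134 and 149 in Col and 3215, 3200 and 3242 in clf swn (23.3-fold, adjusted p = 1.4e-08). The oxidases CKX3 (3.01) and CKX1 (1.80), which degrade the hormone, rose as well, and CKX5 (1.34) was called only with background correction (0.69 without it). The response regulator ARR9 (-1.26) and the oxidase CKX4 (-1.17) fell, although CKX4 did not pass the threshold without Col replicate 2 (-0.95). ARR5 (-1.20) and ARR16 (-1.11) were called down-regulated only with background correction (-0.88 and -0.29 without it), and ARR16 not without replicate 2 of Col (-0.88) or of clf swn (-0.99).

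Enzymes of jasmonate synthesis fell steeply. In the list for defence and jasmonate 7 of 15 genes fell and 2 rose. AOC2, an allene oxide cyclase, gave 12817, 14618 and 9913 in Col and 164, 189 and 113 in clf swn (81-fold lower, adjusted p = 7.9e-08), and AOC1 (-4.83), the lipoxygenase LOX2 (-4.31) and the allene oxide synthase AOS (-3.36) fell with it. The next enzyme, OPR3, was not called (-0.83). The pathogenesis-related gene PR5 fell by 4.75, while PR1 was low in both genotypes with means of 70.6 and 60.9. PDF1.2, an antifungal defensin, rose from 230, 67.8 and 162 to 3786, 2614 and 2180 (20.5-fold, adjusted p = 0.00071), and JAZ10 by 2.41. The storage proteins of leaves VSP1 and VSP2, which jasmonate induces, had log2 changes of -0.50 and -0.18 and were not called. Among 10 clock genes only CCA1, which fell 3.98-fold from 9789 to 2454, and ELF4, which rose 3.95-fold from 2618 to 10374, were called. The hour of harvest was not given in the sources used here.

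**Figure D5:**
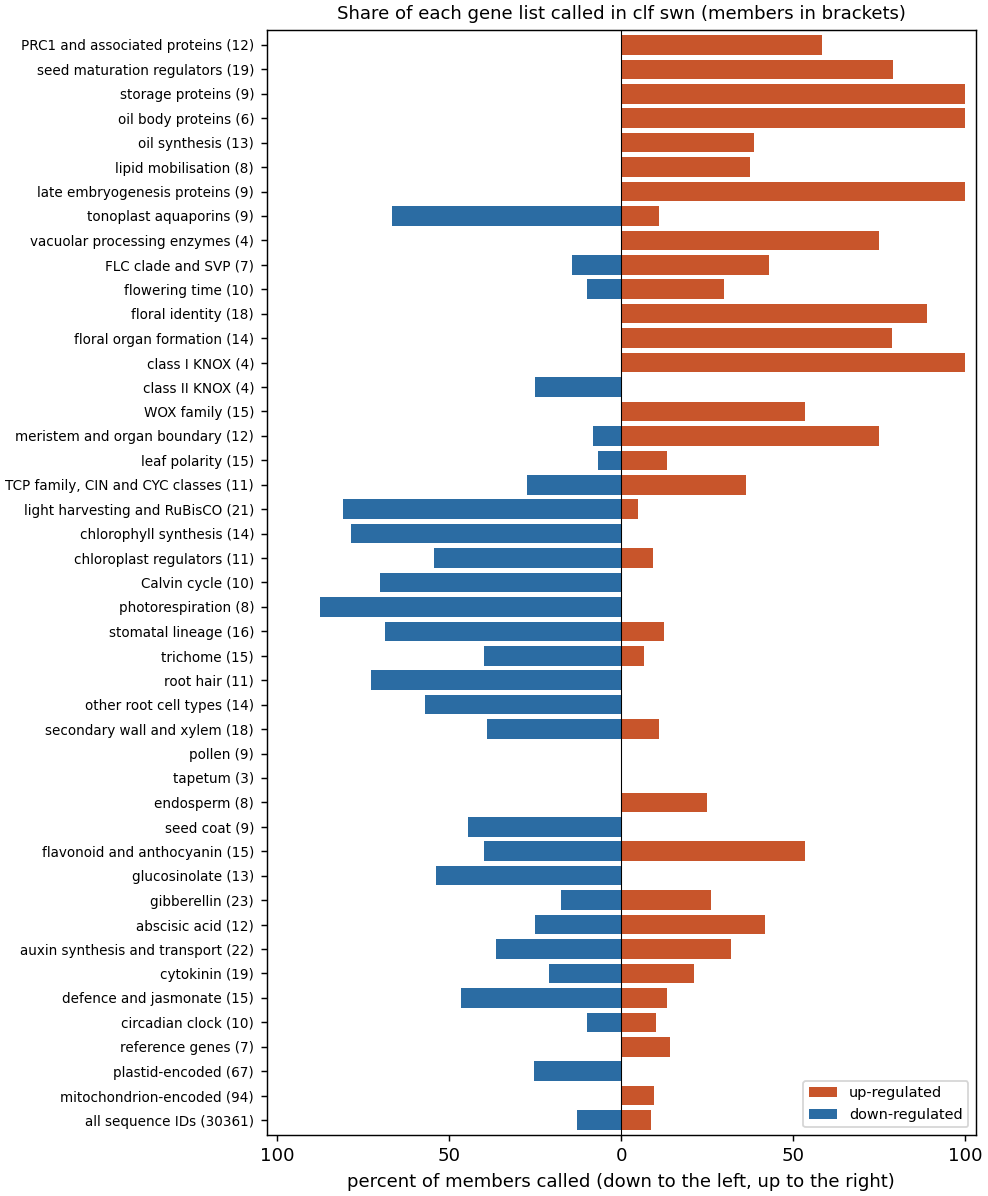
Share of each gene list, without the PRC2 list, called up-regulated (to the right) or down-regulated (to the left) in clf swn. The number of members is in brackets, and all 30361 sequence IDs are in the lowest bar (8.78% and 12.8%). Storage, oil body, late embryogenesis and class I KNOX lists reach 100% to the right, and photorespiration and light harvesting are the longest bars to the left.

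The probes of a called ID mostly moved the same way. Of the 2666 up-regulated IDs, all of which had at least 2 probes, 2639 (99.0%) had every probe higher in clf swn when probes were examined one by one without background correction, and of 3894 down-regulated IDs with at least 2 probes 3816 (98.0%) had every probe lower. Probes of a gene were read on the same arrays and are not replicates. The calls rest on the same probes, so their agreement is partly built in. The share for IDs that were not called was not computed.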

How the data were processed

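RNA of whole seedlings was labelled and hybridised to Roche NimbleGen 4x72K arrays built on TAIR version 6. The deposited values are intensities: per-probe signals that the authors extracted with NimbleScan 2.4.31, and linear RMA values per sequence ID that they made from these probes. Which software ran RMA, and how, is not given in the sources used here. RMA values were taken as log2, and limma 3.58.1 (lmFit and eBayes, R 4.3.3) was fitted to 3 group means over all 9 arrays, with clf swn minus Col as the contrast. Calls required more than a 2-fold change and an adjusted p (Benjamini-Hochberg, all 30361 IDs) under 0.05. The study's methods also used 2-fold at a stated confidence and name no correction. Means and SDs are of linear values, and folds are of mean log2 values. Gene lists (43 lists with 509 distinct genes) were matched by locus to RefSeq names, and 9 genes that the annotation names otherwise were left out. The gene lists, the contrast and the tests were chosen with earlier results of these data known, so no list is independent evidence. Named were, in each list, up to 5 called members per direction with the largest change (fewer in several lists), members that spell out small counts, the 10 largest rises and falls of the array with separated groups, and all PRC2 genes. Further members are named where they were not called or lost their call, a choice made with their values in view. Counts of genes and probes come from the tables, and 3 arrays per group limit the precision. The fit was tested on simulated data. Alternatives covered background correction, normalisation, filtering, the arrays in the fit, pairing by replicate number, thresholds and each array left out. Sequences of FIE-HA regions were copied from the study's list, and no other value was taken from it. The values of 1 gene are not reported here.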

Additional observations from a re-analysis of the deposited data

How the results depend on the processing

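No call reversed its direction under any alternative. With probe signals that were not background-corrected 1564 genes were up-regulated and 2344 down-regulated, of which 1555 and 2335 were also called with RMA values, and with normexp the counts were 1945 and 2875. With no fold threshold 7336 and 6887 genes passed. Leaving out each array in turn gave 2664 to 2750 up-regulated and 3774 to 3962 down-regulated genes, a log2 change of CLF between -1.61 and -1.49, and a log2 change of SWN between -6.30 and -5.43. The replicate numbers did not pair the pools (correlations of deviations -0.123, 0.000457 and 0.00231). A fit with a replicate block called 2664 and 3878 genes. The other alternatives gave 2431 to 2717 up-regulated and 3555 to 3996 down-regulated genes. Of 526 genes followed (all list members and the 10 largest rises and falls), 52 lost their call without background correction and 2 gained it. The signal close to background limits the folds of silent genes, which have no true zero on this scale. The planned search of promoters for motifs was not run here.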

Other observations

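The families in this section were chosen after their values were seen, so their counts are a description. Growth-regulating factors, which promote cell proliferation in young organs, were nearly all higher in clf swn: 8 of 9 rose and GRF3 had a log2 change of 0.70. GRF8 gave 134, 104 and 110 in Col and 2579, 2918 and 2765 in clf swn (log2 change 4.58), GRF7 rose by 4.25 and GRF5 by 3.53, and the 8 calls held without background correction. Of 37 genes with an HB symbol, which include homeobox genes, 14 rose and 2 fell. In contrast 13 of 16 genes with a SAUR symbol, small auxin-induced RNAs of growing tissue, fell and 1 rose (median -3.23, 10 down-regulated and none up-regulated without background correction). SAUR20 fell from a mean of 1766 to 28.5. Many SAUR genes are tandem copies of similar sequence, so their signals may be shared.

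Among transporters and kinases, 21 of 40 genes with a CRK symbol, which include cysteine-rich receptor-like kinases, fell and none rose. Without background correction 15 were down-regulated. Of 44 UMAMIT genes, which include amino acid exporters, 20 fell and 6 rose. UMAMIT23 rose from a mean of 133 to 11479 and UMAMIT24 by 5.82 on the log2 scale, while UMAMIT20 fell by 3.97. Of 15 SWEET sugar exporters 8 fell and 5 rose (6 and 2 without background correction). SWEET11 and SWEET12, which load the phloem in leaves, fell by 4.38 and 3.94, and SWEET7 rose by 3.93. Of 19 genes with a PIP symbol, which include aquaporins, 8 fell and 1 rose.

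Called genes also stood side by side on the chromosomes. The longest run of adjacent up-regulated IDs held 7, from AT3G12410 to AT3G12470, and the longest run of down-regulated IDs held 9, from AT1G66910 to AT1G66990. How many such runs random placement would give was not tested, and neighbouring genes are often similar in sequence.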
